A study of Saccharomyces cerevisiae with 4 samples.

Results

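To follow the mRNAs of the cohesin machinery when transcription is inhibited, 10 genes were taken from spike-in total RNA-seq of budding yeast: the subunits SMC1, SMC3, MCD1 and IRR1, the regulators PDS5 and RAD61, the loader genes SCC2 and SCC4, and the acetyltransferase and deacetylase genes ECO1 and HOS1. They were chosen by name for their known roles, and all 10 were found among the 7071 genes of the tables. Thiolutin-treated cells were wild-type Saccharomyces cerevisiae (strain CB67, WT) held in G2/M by 80 µg/ml benomyl for 90 min and exposed to 20 µg/ml thiolutin, an inhibitor of yeast RNA polymerases, for 30 min. DMSO cells were the same strain in the same benomyl arrest, given DMSO. Each group had 2 libraries, a and b, of total RNA depleted of large ribosomal RNA, and every S. cerevisiae cell pellet was combined with Schizosaccharomyces pombe cells before RNA extraction. The labels do not say that a and b were separate cultures, so the p-values measure the spread between these libraries, which may be technical.

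Cohesin is a ring-shaped complex that holds sister chromatids together and extrudes chromosome loops. Smc1 and Smc3 are long coiled-coil ATPases that meet at their hinges, and the kleisin Mcd1 (also called Scc1) closes the ring by joining their heads. Irr1 (Scc3) and Pds5 bind Mcd1, Scc2 and Scc4 load the ring onto chromosomes, Rad61 (Wpl1) releases it, and Eco1 acetylates Smc3 in S phase to stabilize cohesion, a mark that Hos1 later removes. MCD1 is transcribed periodically with a peak around the G1/S transition, and Mcd1 protein is cleaved by separase at anaphase.

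The 10 genes lie on 7 chromosomes of the R64 (sacCer3) assembly, each has a single uninterrupted coding segment, and none overlaps another gene. Of these, 5 (MCD1, SCC2, SCC4, ECO1 and HOS1) face a convergent downstream neighbour, the arrangement at which cohesin accumulates on yeast chromosomes. SCC2 (YDR180W, chrIV:821295-825776, plus strand) ends 133 bases from SAS4, and MCD1 (YDL003W, chrIV:444683-446383, plus strand) ends 583 bases from NHP10. The longest coding region is that of SCC2 with 4482 bases, and the shortest that of ECO1 (YFR027W, chrVI:207452-208297, plus strand) with 846 bases.

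One feature of sequence that the choice of genes did not use is the MluI cell cycle box, ACGCGT, the element read by the G1/S transcription factor MBF (Mbp1 with Swi6). It reads the same on both strands. It was present within 300 bases upstream of the start codon in 6 of the 10 genes, against 209 of 6001 protein-coding genes (3.48%), a description with no test, since the motif was chosen with expression values known. The 30 bases around each match are shown to place the motif. Only the motif, which was the search term, is common to all 6 genes. Some share bases beside it: acgcg stands directly before it in SMC3, IRR1 and PDS5, and aaagt directly after it in SMC1 and PDS5. The stretches are read 5′ to 3′ on the strand of the gene with the motif in capitals.
MCD1, chrIV:444379-444408, plus strand: actcgaggagggACGCGTcgagaaaatcgc
SMC1, chrVI:119295-119324, plus strand: aaagtatcaataACGCGTaaagtgaataga
SMC3, chrX:302949-302978, minus strand: ggaaaagacgcgACGCGTtaggaaatgatt
IRR1, chrIX:308047-308076, minus strand: gacggcaacgcgACGCGTgacgcgtaagat
PDS5, chrXIII:420180-420209, minus strand: tgtcgcgacgcgACGCGTaaagttgtataa
ECO1, chrVI:207306-207335, plus strand: aatttaacgtcaACGCGTaatagaaaaaaa
The motif was carried by PDS5, ECO1 and all 4 ring genes, here SMC1, SMC3, MCD1 and IRR1, although Irr1 binds the ring. IRR1 carried a second match separated from the first by 1 base, within the stretch shown. No match was found in this window of SCC2, SCC4, RAD61 or HOS1, which says only that these letters are not there. Relative to other mRNAs, the median log2 fold change with thiolutin was -0.03 over 190 tested genes with it and -0.04 over 5080 protein-coding genes without it.

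The libraries held 38613462 and 11598766 expected counts (reads assigned to genes by the authors' software) with thiolutin, against 27262771 and 48045781 with DMSO. Protein-coding genes took 6.56 and 8.12% of these with thiolutin and 11.8 and 11.2% with DMSO, so the median coding gene had 73.5 and 29 counts with thiolutin, against 132 and 223 with DMSO. The cohesin genes were thus read at low depth, most of all in thiolutin b. Of the markers of the arrest, summed G2/M genes stood at 67.4 and 77.4 coding TPM with thiolutin, against 165 and 173 coding TPM with DMSO, and summed G1 and S phase genes at 30.4 and 27.5 with thiolutin, against 44.5 and 41.9 with DMSO, with none of the 7 G2/M genes at 0 in any library. Coding TPM is the level per transcript length, scaled to the same total over protein-coding genes in every library. Relative to other mRNAs, 3 of the 7 G2/M genes were called lower and 0 higher in the edgeR quasi-likelihood test, from CLB2, the main mitotic cyclin gene, which fell by 2.13 on the log2 scale (adjusted p = 4.74e-05), through CLB1 and CDC5. Among those that did not pass, the log2 fold changes were -0.19 for BUD4, -0.15 for CDC20 and 0.61 for SWI5. The part of this in the results below was not tested.

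By level per length, the mRNAs of the cohesin machinery were low to middling among all genes. MCD1 was the most abundant of the 10, at 13.3 and 21.7 coding TPM with thiolutin, against 19.6 and 18.7 with DMSO, and in the DMSO cells it stood at percentile 48.5 of all protein-coding genes. PDS5 was the scarcest in every library but thiolutin b, where HOS1 had 2.20, and stood at 2.04 and 2.36 coding TPM with thiolutin, against 1.50 and 2.08 with DMSO, at percentile 11.1. The other 8 genes lay between percentiles 24.9 and 33.7 in DMSO cells. Their order there, by mean, was SCC2, SMC3, ECO1, SCC4, IRR1, SMC1, HOS1 and RAD61, and the 2 DMSO values of each overlapped with those of its neighbours, whereas MCD1 and PDS5 stood apart above and below.

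The values are first given relative to the other mRNAs of the same library, as CPM (the count of a gene divided by the normalized library total, on the usual scale of CPM) after TMM normalization, under which a typical gene does not change. SMC1 had 3.95 and 5.21 CPM with thiolutin, against 2.56 and 3.64 with DMSO. SMC3 had 3.50 and 6.59 with thiolutin, against 2.90 and 4.70 with DMSO. Both thiolutin libraries were above both DMSO libraries for SMC1, whereas the groups overlapped for SMC3. The log2 fold changes were 0.50 for SMC1 (SE 0.24, adjusted p = 0.126) and 0.28 for SMC3 (SE 0.31, adjusted p = 0.496), by the edgeR quasi-likelihood test over 5527 genes.

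MCD1, the kleisin gene, had 3.58 and 5.10 CPM with thiolutin, against 4.20 and 3.96 with DMSO. The thiolutin libraries fell on either side of the DMSO libraries. Its mean was 4.34 ± 1.08 with thiolutin and 4.08 ± 0.171 with DMSO (SD, n = 2 each), and the log2 fold change of 0.03 had a 95% interval from -0.44 to 0.50 (edgeR, adjusted p = 0.925). IRR1, which encodes the subunit bound to Mcd1, had 3.66 and 4.78 with thiolutin, against 2.92 and 3.27 with DMSO, with no overlap between groups. Its log2 fold change was 0.40 (SE 0.21, adjusted p = 0.169).

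PDS5 encodes the regulator that binds next to Irr1 on the kleisin and is needed both to maintain cohesion and to release the ring. It had 1.26 and 1.28 CPM with thiolutin, against 0.744 and 1.01 with DMSO, again without overlap. These rest on 31 and 12 counts with thiolutin, against 29 and 66 with DMSO, and the log2 fold change of 0.51 carried an SE of 0.36 (edgeR, adjusted p = 0.291). RAD61, whose product acts with Pds5 in release, lay on the other side, with 0.855 and 1.28 with thiolutin, against 1.64 and 1.49 with DMSO. The groups did not overlap, and its log2 fold change was -0.64 (SE 0.33, adjusted p = 0.156).

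SCC2, the catalytic subunit of the loader, had 3.26 and 4.78 CPM with thiolutin, against 5.10 and 6.21 with DMSO. Both thiolutin libraries were below both DMSO libraries. Its log2 fold change was -0.57 (SE 0.22, 95% interval from -1.06 to -0.08), with an unadjusted p of 0.0258 and an adjusted p of 0.0657 in the edgeR fit. SCC4, the loader's other subunit, had 1.26 and 1.91 with thiolutin, against 1.54 and 1.95 with DMSO. These overlapped, with a log2 fold change of -0.24 (SE 0.31, adjusted p = 0.579).

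ECO1 had 0.529 and 0.744 CPM with thiolutin, against 0.872 and 0.737 with DMSO, an overlap by a narrow margin. HOS1 had 1.10 and 0.425 with thiolutin, against 1.13 and 1.15 with DMSO. Thiolutin a was close to the DMSO libraries for HOS1 and thiolutin b was well below them, from 4 counts, for which the exact Poisson 95% interval is 1.09 to 10.2. The log2 fold changes were -0.40 for ECO1 (SE 0.44, adjusted p = 0.507) and -0.40 for HOS1 (SE 0.41, adjusted p = 0.472), and that of HOS1 was -1.42 without thiolutin a and -0.07 without thiolutin b.

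**Figure D1:**
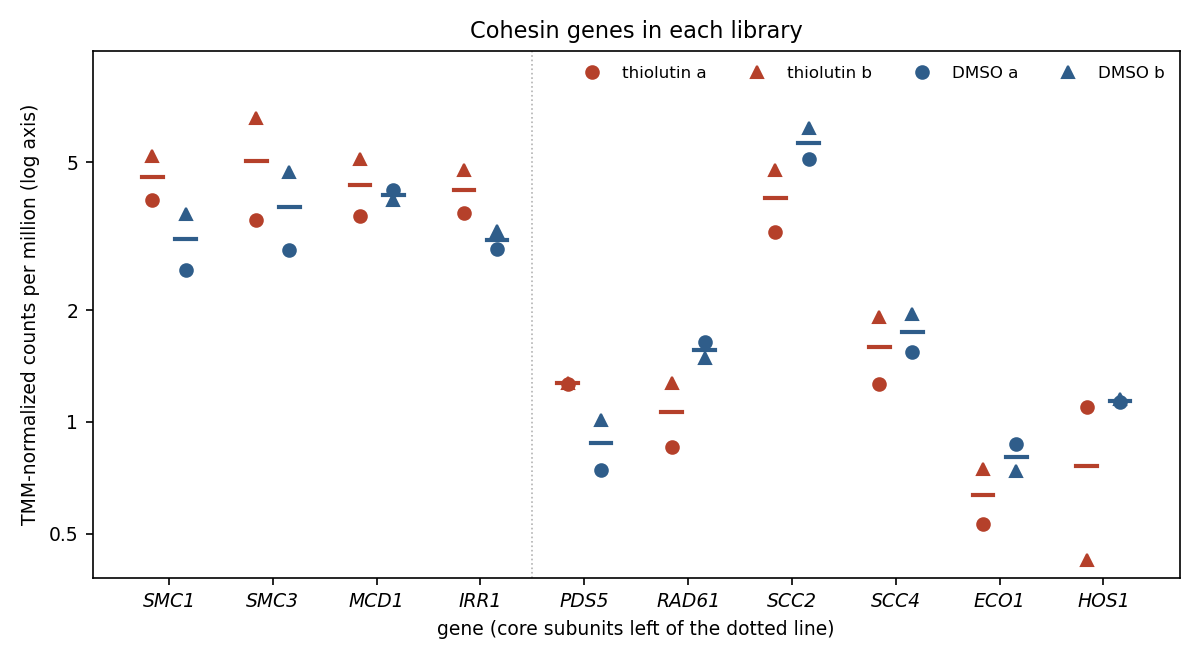
TMM-normalized CPM (log axis) of the 10 cohesin genes in each library, thiolutin left of DMSO for each gene. Circles are replicate a, triangles replicate b and dashes the group means. SMC1, IRR1 and PDS5 have both thiolutin points above both DMSO points, and RAD61, SCC2 and HOS1 have both below.

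Relative to the other mRNAs, therefore, 0 of 10 cohesin genes passed an adjusted p of 0.05 in the edgeR quasi-likelihood test, and SCC2 alone had an unadjusted p under 0.05. DESeq2 also called 0. In the same fit 18.5% of all genes were called higher and 17.6% lower with thiolutin. At the study's threshold of 1e-05 these shares were 0.796% and 0.199%, and again 0 of 10 cohesin genes were called. The groups did not overlap for 3 genes that were higher and 3 that were lower with thiolutin, where 33.2% of all genes had both thiolutin libraries above and 36.7% had both below. The median log2 fold change was -0.10 for the 10 genes and -0.02 for all genes. With 2 libraries per group a missed threshold does not show that the levels were alike. Both thiolutin libraries moved the calls and the values. Without thiolutin a the log2 fold changes were 0.72 for SMC1, 0.76 for SMC3, -0.28 for RAD61 and -0.25 for SCC2. Without thiolutin b they were 0.30, -0.17, -0.88 and -0.83. The median for the 10 genes was 0.22 without thiolutin a and -0.19 without thiolutin b, beside -0.08 and -0.04 over all genes.

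The second scale sets each library to its S. pombe reads, so that a change of all mRNAs together can be seen. Its values are called spike-in CPM, the count of a gene over the S. pombe reads of its library on the scale of CPM. Here all 10 genes had negative log2 fold changes, as had most genes. SCC2 had 7.17 and 16.7 spike-in CPM with thiolutin, against 29.0 and 32.7 with DMSO, and RAD61 had 1.88 and 4.46 with thiolutin, against 9.32 and 7.86 with DMSO. The thiolutin libraries were below the DMSO libraries for both genes, and thiolutin a was below thiolutin b. SCC2 fell by 1.46 on the log2 scale (SE 0.43, edgeR adjusted p = 0.00303) and RAD61 fell by 1.65 (SE 0.47, adjusted p = 0.00205).

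SCC4, ECO1 and HOS1 were the other genes called. SCC4 had 2.78 and 6.70 spike-in CPM with thiolutin, against 8.74 and 10.3 with DMSO, and fell by 1.19 (adjusted p = 0.0196). ECO1 had 1.17 and 2.60 with thiolutin, against 4.95 and 3.89 with DMSO, and fell by 1.45 (adjusted p = 0.0234). HOS1 had 2.42 and 1.49 with thiolutin, against 6.41 and 6.08 with DMSO, and fell by 1.54 (adjusted p = 0.00567). SCC2, RAD61, SCC4, ECO1 and HOS1 were thus called lower per S. pombe read, as were 50.7% of all genes tested. PDS5 was not called, with 2.78 and 4.46 with thiolutin, against 4.22 and 5.35 with DMSO.

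None of the 4 ring genes passed the threshold on the spike-in scale. SMC1 had 8.70 and 18.2 spike-in CPM with thiolutin, against 14.6 and 19.2 with DMSO, and SMC3 had 7.71 and 23.1 with thiolutin, against 16.5 and 24.8 with DMSO. Thiolutin a was low and thiolutin b within the DMSO range for both genes. MCD1 had 7.89 and 17.9 with thiolutin, against 23.9 and 20.9 with DMSO, without overlap, and its log2 fold change was -0.88 (SE 0.42, edgeR adjusted p = 0.0668). The log2 fold changes of SMC1, SMC3, IRR1 and PDS5 were -0.40, -0.52, -0.53 and -0.52, with adjusted p values from 0.272 to 0.399.

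In all, 5 of 10 cohesin genes were called lower on the spike-in scale and 0 higher, beside 50.7% lower and 1.47% higher over all genes tested, so the count for the 10 genes was near the background. At 1e-05 the shares over all genes were 6.08% lower and 0.489% higher, and 0 of 10 cohesin genes were called. The median log2 fold change was -1.04 for the 10 genes and -1.01 for all genes. Less RNA per cell and fewer S. cerevisiae cells per S. pombe cell cannot be told apart on this scale, and an error in the S. pombe reads of a library shifts all its genes together. The calls turned on single libraries, for the 10 genes and over all genes. The median for the 10 genes was -0.42 without thiolutin a and -1.47 without thiolutin b, beside -0.72 and -1.33 over all genes. It was -0.97 without DMSO a and -0.96 without DMSO b, beside -0.96 and -1.04 over all genes. Without thiolutin a the log2 fold changes were -0.93 for RAD61, -0.89 for SCC2, -0.52 for SCC4 and -0.74 for ECO1. Both thiolutin libraries taken against the DMSO library of the same letter gave medians for the 10 genes of -1.50 for a and -0.42 for b, beside -1.37 and -0.65 over all genes.

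**Figure D2:**
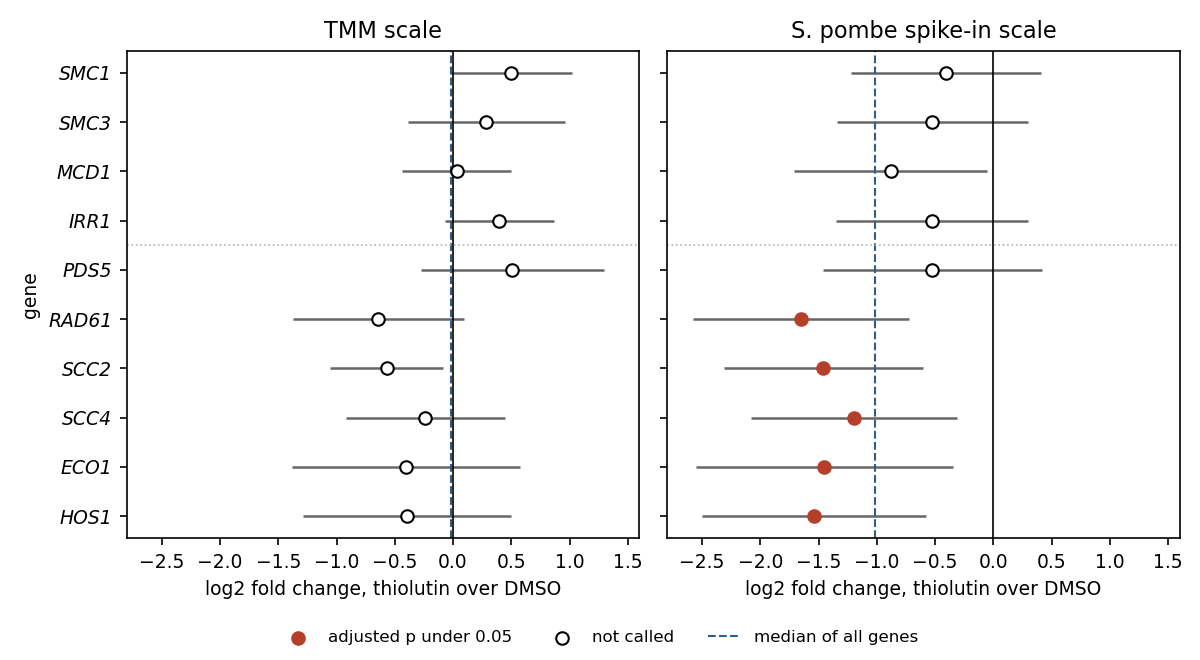
Log2 fold change, thiolutin over DMSO, of each cohesin gene with its 95% interval on the TMM scale (left panel) and the S. pombe spike-in scale (right panel). Filled points have an adjusted p under 0.05, and the dashed line is the median of all genes, -0.02 and -1.01. None is filled at left, and RAD61, SCC2, SCC4, ECO1 and HOS1 are filled at right.

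The ring genes and most genes of loading and regulation fell on different sides of the median of all genes on both scales. Both scales rest on the same counts, so the second is no separate support. The 4 ring genes had log2 fold changes above the median of all genes, from 0.03 to 0.50 on the TMM scale, whereas 5 of the 6 loader and regulator genes were below it, from -0.64 to -0.24, the exception being PDS5 at 0.51. The median was 0.34 for the ring genes and -0.40 for the other 6. MCD1, at 0.03, was close to the median of all genes, -0.02. IRR1 and PDS5, whose products both bind Mcd1, had 0.40 and 0.51 and were placed in different classes. This division was made after the values had been seen and is given as a description. It held in each alternative that used all 4 libraries. These could hardly change it, since a new normalization moves each gene and the median of all genes together. A new test or filter also changed the fold changes little. With libraries left out in turn, the division held without DMSO a but not without any of the others. Without thiolutin b only 2 of the 4 ring genes (SMC1 and IRR1) were above the median of all genes, and without thiolutin a or without DMSO b 4 of the 6 loader and regulator genes were below it, SCC4 having moved above. SCC4 stood at 0.12 on the TMM scale without thiolutin a.

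A ratio within a library needs no scaling between libraries. The ring genes had 361 and 204 counts with thiolutin, against 491 and 1014 with DMSO, and the loader and regulator genes had 203 and 98 counts with thiolutin, against 430 and 817 with DMSO. The ring genes therefore took 64.01% (95% Clopper-Pearson interval 59.9 to 68.0) and 67.5% (62.0 to 72.8) of the reads of the 10 genes with thiolutin, against 53.3% (50.0 to 56.6) and 55.4% (53.1 to 57.7) with DMSO. These intervals cover counting error only. Neither thiolutin interval reached a DMSO interval, and the mean ratio of ring to other counts was 1.62-fold higher with thiolutin. With 2 libraries per group an exact two-sided permutation test cannot go below p = 0.33, and the ratio was chosen after the values had been seen, so no p is given.

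**Figure D3:**
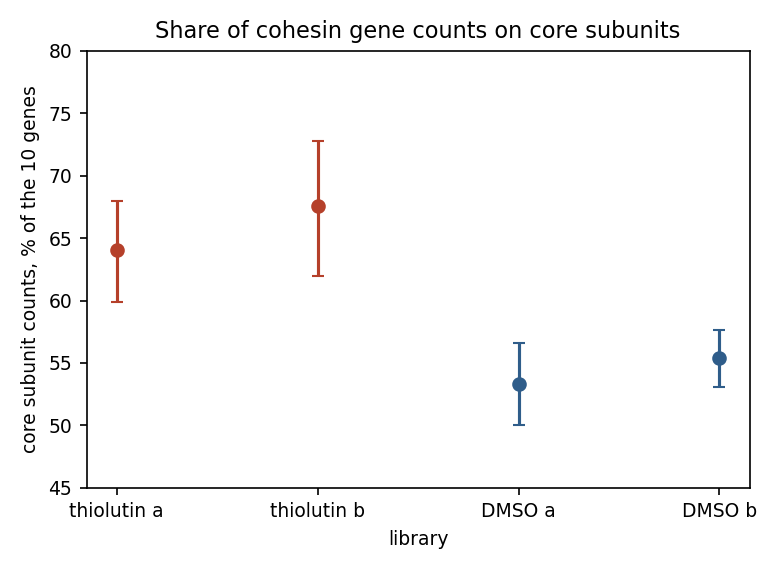
Percent of the reads of the 10 cohesin genes that fell on SMC1, SMC3, MCD1 and IRR1 in each library, with exact Clopper-Pearson 95% intervals. Thiolutin a and b stand at 64.01 and 67.5%, DMSO a and b at 53.3 and 55.4%; the vertical axis does not start at 0.

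Ratios of single genes, taken per length within a library, are given as a description for some pairs. No share over other pairs was computed. Over all genes on the TMM scale, 33.2% had both thiolutin libraries above both DMSO libraries and 36.7% had both below. These shares are for single genes and are no background for ratios. SCC2 stood at 0.675 and 0.751 of the SMC1 level with thiolutin, against 1.63 and 1.39 of it with DMSO. PDS5 stood at 0.736 and 0.499 of the RAD61 level with thiolutin, against 0.226 and 0.339 with DMSO. In both pairs the groups were apart, with SCC2 below SMC1 only in the thiolutin libraries. In thiolutin b the ratio of PDS5 to RAD61 rests on 12 counts of each gene. Within the loader the ratio of SCC2 to SCC4 was 1.06 and 1.02 with thiolutin, against 1.36 and 1.304 with DMSO, also apart. Among the ring genes, IRR1 stood at 0.989 and 0.979 of the SMC1 level with thiolutin, against 1.22 and 0.958 with DMSO, an overlap. The ratio of MCD1 to SMC1 was 2.00 and 2.16 with thiolutin, against 3.62 and 2.40 with DMSO, and the groups were apart. Other pairs were also computed. The groups overlapped for SMC3 to SMC1, MCD1 to SMC3, ECO1 to HOS1 and HOS1 to SMC3. They were apart for IRR1 to MCD1, SCC2 to MCD1 and ECO1 to SMC3.

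The fold change also varied with the number of reads behind a gene. Protein-coding genes with a mean of 30 to 60 counts had a median log2 fold change of -0.32 on the TMM scale, those with 60 to 100 counts -0.18, those with 100 to 200 counts -0.11 and those with 500 or more 0.31. The ring genes had mean counts of 116 to 142, and RAD61, SCC4, ECO1 and HOS1 had 25.5 to 59. SCC2, with a mean of 182 and a log2 fold change of -0.57, and PDS5, with a mean of 34.5 and 0.51, lay on the other side of their classes. The part of read number in the division of the 10 genes was not tested.

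**Figure D4:**
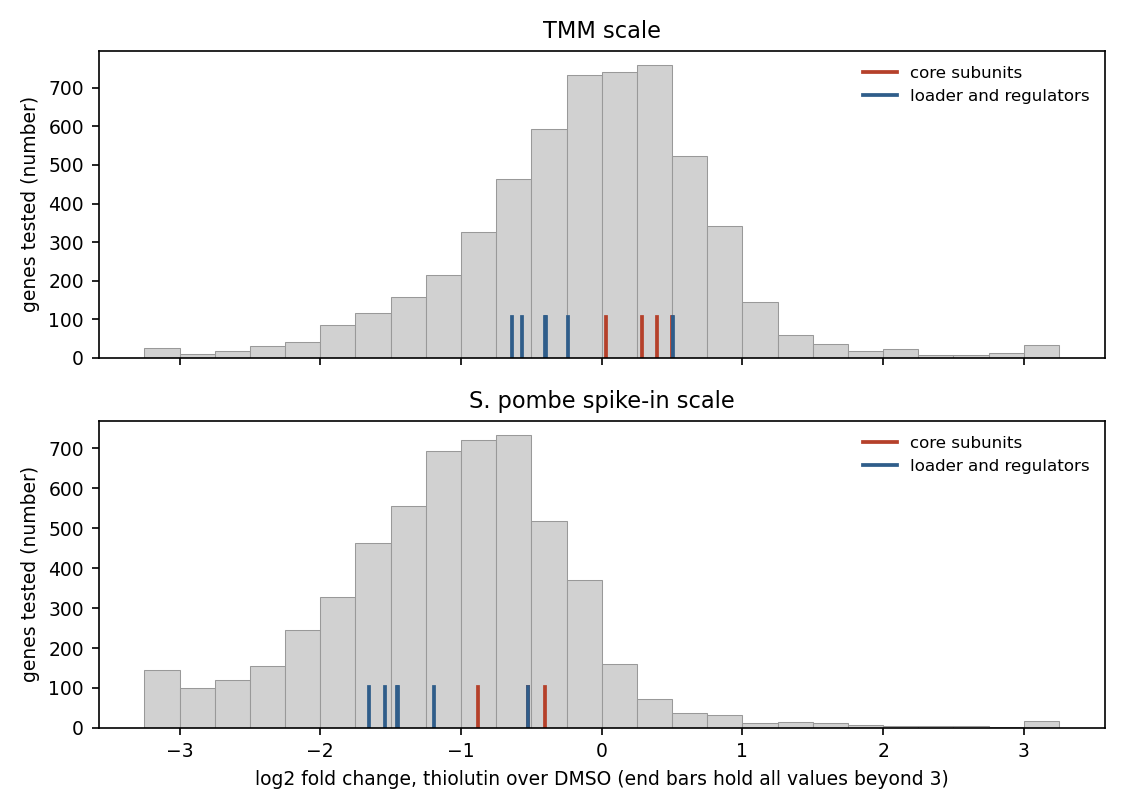
Number of genes by log2 fold change, thiolutin over DMSO, on the TMM scale (top) and the spike-in scale (bottom), over the 5527 genes tested, with short lines at the ring subunit genes and at the loader and regulator genes. On both scales the 10 genes lie in the body of the distribution; the lines of ECO1 and HOS1 coincide at top and those of SMC3, IRR1 and PDS5 at bottom.

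Genes that act around cohesin were read from 3 lists of 23 genes, of which 22 passed the filter on low counts. Relative to other mRNAs, 6 of 22 were called lower and 0 higher, beside 17.6 and 18.5% of all genes, with a median log2 fold change of -0.52 against -0.02 for all genes. Per S. pombe read, 20 of 22 were called lower, beside 50.7% of all genes, with a median of -1.51 against -1.01. This share also varied with read number. It was 67.4% for protein-coding genes with a mean of 30 to 60 counts, 59.8% with 100 to 200 and 31.1% with 500 or more. The part of read number in the values of these lists was not tested. Both DMSO libraries moved the calls: without DMSO a or without DMSO b 1 gene (CDC5) was called lower on the TMM scale, and on the spike-in scale 0 and 1 genes. DESeq2 called 2 of 22 lower on the TMM scale.

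Of the 10 genes that establish cohesion at replication forks, 3 were called lower on the TMM scale. DCC1, a subunit of the alternative clamp loader Ctf18-RFC, had 1.75 and 1.49 CPM with thiolutin, against 2.79 and 3.35 with DMSO, and fell by 0.89 on the log2 scale (SE 0.25, edgeR adjusted p = 0.0166). CHL1, a helicase gene, fell by 0.79 (adjusted p = 0.0155). ELG1, whose product unloads the clamp PCNA, had 0.611 and 1.38 with thiolutin, against 2.44 and 2.30 with DMSO and fell by 1.45 (adjusted p = 0.00893). Without thiolutin a, ELG1 stood at -0.77 (adjusted p = 0.126) and CHL1 at -0.72 (adjusted p = 0.0560). Not all of the list lay lower, since CTF4 and MRC1, which encode fork proteins, had log2 fold changes of 0.31 and 0.36 (adjusted p = 0.286 and 0.300), and these were the 2 genes of 22 not called lower per S. pombe read.

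Of the 6 tested genes of cohesin cleavage and protection, CDC5 was called lower. It encodes the polo kinase that phosphorylates Mcd1, had 4.56 and 3.30 CPM with thiolutin, against 7.97 and 9.19 with DMSO, and fell by 1.07 on the log2 scale (SE 0.20, edgeR adjusted p = 0.00185). CDC5 is also 1 of the 7 G2/M genes above. REC8, the meiotic kleisin that takes the place of Mcd1, had 4 and 0 counts with thiolutin, against 22 and 26 with DMSO, and did not pass (adjusted p = 0.0623).

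Of the 6 genes that bring the loader to kinetochores, 2 were called lower. MCM21, of the COMA complex, had 1.26 and 0.638 CPM with thiolutin, against 1.79 and 2.27 with DMSO, and fell by 0.96 on the log2 scale (SE 0.33, edgeR adjusted p = 0.0438), but was at -0.72 without thiolutin b (adjusted p = 0.0588) and at -1.68 without thiolutin a. IML3, which pairs with Chl4, had 1.02 and 0.319 with thiolutin, against 2.10 and 1.63 with DMSO, and fell by 1.23 (SE 0.40, adjusted p = 0.0327). IML3 stood at -2.51 without thiolutin a and at -0.87 without thiolutin b, and was called lower in both. For both genes the thiolutin b values rest on few reads, 6 for MCM21 and 3 for IML3.

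**Figure D5:**
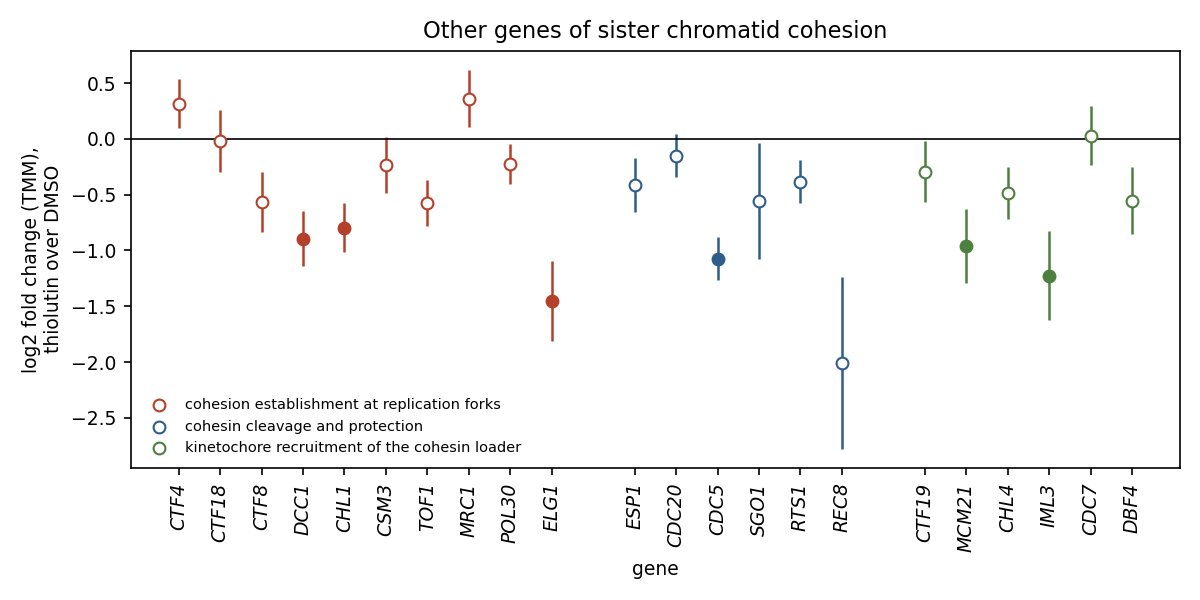
Log2 fold change on the TMM scale, thiolutin over DMSO, of the 22 tested genes of the lists around cohesin, with bars of 1 SE and filled points where the adjusted p was under 0.05. The filled points are DCC1, CHL1, ELG1, CDC5, MCM21 and IML3, all below 0.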

How the data were processed

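Stranded single-end reads had been aligned by the authors to sacCer3 with STAR 2.7.3a, and they deposited per gene the expected counts and TPM estimated by RSEM 1.3.1. They counted S. pombe reads with Bowtie 1.2.2. The deposited FPKM values were not used. Deposited TPM has few digits for these genes, so coding TPM was computed from the expected counts and effective lengths over 5988 protein-coding genes. Of 7071 identifiers, 6006 matched R64, and the 10 cohesin genes had R64 lengths. The strain is not the R64 reference strain, from which the sequences were read.

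Expected counts were rounded to whole numbers. The 5527 genes left by filterByExpr went, after TMM normalization, into the quasi-likelihood test of edgeR 4.0.16 (limma 3.58.1, R 4.3.3) with treatment as the term and Benjamini-Hochberg adjustment over all genes. SE was the log2 fold change over the square root of F. On the spike-in scale the S. pombe read totals of the study served as library sizes. The study names edgeR and a generalized linear model, not the test, filter or normalization. DESeq2 1.42.0 and other normalizations, filters, tests and left-out libraries were alternatives. A replicate letter was not taken as a pairing in the reported fits. It was used for the medians by letter, as a description, and for the replicate block among the alternatives. The scripts were tested on simulated data. Replicate libraries were counted as separate samples: over all genes their counts gave a chi-square of 147 per degree of freedom for thiolutin and 29.7 for DMSO.

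All 10 genes are named, with the surrounding genes called on the TMM scale and at most 5 others of their lists. Phase markers and chromosomal neighbours named outside this rule were picked after their values were seen or for position. The members and lists were chosen with earlier results of these data known. The division into ring genes and the rest, its ratio and the motif search were chosen after values were seen.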

Additional observations from a re-analysis of the deposited data

How the results depend on the processing

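On the TMM scale the cohesin genes called lower were 1 (SCC2), against 0 in the reported fit, under upper quartile factors, the likelihood ratio test or no filter on low counts, and 0 with DESeq2 size factors, a mean of at least 20 counts or the DESeq2 Wald test; over all genes the Wald test called 563 lower against 971. Leaving out each library gave a median of -0.19 to 0.22 for the 10 genes, beside -0.08 to -0.01 over all genes. MCD1 turned to -0.10 with upper quartile factors, and over left-out libraries SMC3 ran from -0.17 to 0.76, MCD1 from -0.20 to 0.33, SCC4 from -0.50 to 0.12 and HOS1, the widest, from -1.42 to -0.07. On the spike-in scale 9 genes were lower with 25S and 18S rRNA counts as library size (4653 over all genes against 2804), 6 with the likelihood ratio test and 5 with no filter; leaving out each library gave 0 to 10, with SMC1 from -0.98 to 0.089 and SMC3 from -1.45 to 0.13. Without DMSO a or b all genes called lower numbered 143 and 250 on that scale, and 442 and 513, with 368 and 483 higher, on the TMM scale; the lone library was then assumed to vary like the other group. The labels do not say whether the letters a and b mark a shared batch. The deviations of a from b hardly correlated between the groups (r = 0.0269 across genes), but with counting noise in them this does not settle it. With a replicate block 0 cohesin genes were called on the TMM scale. On the spike-in scale 2 (RAD61 and HOS1) were then called, with 1393 of all genes and 13 of the surrounding genes lower. Further alternatives were chosen after seeing the data. The ratio of ring to other counts, 1.62-fold, was 1.74 without MCD1, 1.48 without SCC2, 1.75 with PDS5 counted among the ring genes, 1.56 per length and 1.49 to 1.75 over left-out libraries. Surrounding genes called lower were 2 with the Wald test and 1 to 7 over left-out libraries on the TMM scale, and 0 to 22 on the spike-in scale. The causes were not tested. With 4 to 97 counts a gene in the thiolutin libraries, small changes could not be detected.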

Other observations

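PDS1, which encodes securin, the inhibitor of separase, was the gene of the surrounding lists that did not pass the filter: it had 0 and 0 counts with thiolutin, against 2 and 5 with DMSO, all near or under the 3 counts that a count of 0 allows in a library, so no change is given. Whether reads could be assigned to this locus in the annotation the authors used was not tested, and the counts may not reflect its expression. SGO1, the shugoshin that protects centromeric cohesin, had 26 and 2 counts with thiolutin, against 30 and 94 with DMSO, a log2 fold change of -0.56 on the TMM scale (SE 0.52, edgeR adjusted p = 0.429) in which the thiolutin libraries fell on either side of the lower DMSO value in normalized counts.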
